A study of Mus musculus and Homo sapiens with 12 samples.

Results

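The Vmn2r genes code for the V2R receptors of the vomeronasal organ, and 121 of them were found among the 54446 mouse genes of the count files. Members were the genes whose symbol is Vmn2r followed by digits, with pseudogenes left out. They were chosen as a family with no expected transcripts in embryonic stem cells, so that their counts give a view of background signal. Chromatin-associated RNA (caRNA) of wild-type, untreated mouse embryonic stem cells (mESC, a line labelled as derived from embryos) had been fragmented, and fragments bearing 5-methylcytosine (m5C) had been pulled down with an antibody (IP) or sequenced without pull-down (Input). Each of the groups held 3 libraries, and the cells had been grown with LIF and the inhibitors CHIR99021 and PD0325901 and passaged on gelatin to clear feeder cells. The antibody label of the mESC IP libraries reads none, so the IP and Input groups rest on the library titles.

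V2R receptors are G-protein-coupled receptors with a large extracellular ligand-binding domain, carried by sensory neurons of the basal layer of the vomeronasal organ. They respond to peptide and protein pheromones, such as the exocrine gland-secreting peptides (Esp) and major urinary proteins (Mup), and signal through Gnao1 and the channel Trpc2. A neuron usually carries a receptor of the large families A, B or D together with a broadly expressed co-receptor of family C, which holds Vmn2r1 to Vmn2r7. The genes lie in tandem arrays of near-identical copies, so a short read from them often has more than 1 place in the genome.

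The Input libraries held 29007088 to 34752646 gene counts and the IP libraries 473398 to 592324. Levels are given in CPM, a measure that scales the gene counts of every library to the same total. A single count was worth 1.69 to 2.11 CPM in IP, and 3 counts, the limit that a count of 0 allows, came to 5.06 to 6.34 CPM in IP and 0.0863 to 0.103 CPM in Input. The stem cell label held: 9 of 10 pluripotency markers reached 1 CPM in Input, with their summed level at 2353 to 2387 CPM. The exception, Sox2, was listed at 0 and lies inside Sox2ot on the same strand. Of 10 markers of vomeronasal and olfactory sensory neurons, 3 reached 1 CPM in Input (Adcy3, Gnao1 and Gnai2, which many cell types use), and their summed level was 68.2 to 74.8 CPM in Input and 162 to 169 CPM in IP. Trpc2 and Omp were at 0 in every library, but both overlap other genes on their own strand (Xndc1 and Xntrpc for Trpc2, Capn5 for Omp). Of 8 feeder fibroblast markers, 4 reached 1 CPM in Input, with a summed level of 66.9 to 69.7 CPM in Input and 59.1 to 119 CPM in IP; their part in the Vmn2r counts was not tested.

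The family as a whole was close to silent but not empty. Its 121 genes summed to 377, 425 and 442 counts in the Input libraries and to 193, 293 and 241 in the IP libraries. As a share of gene counts this was 13.0, 12.9 and 12.7 CPM in Input and 408, 498 and 407 CPM in IP. The 3 IP values lay far above the 3 Input values, with a 34.0-fold ratio of the means and a 95% counting interval of 31.2 to 37.5 on the pooled counts. An exact two-sided permutation test gave p = 0.1, the smallest that 3 against 3 libraries allow, and a Benjamini-Hochberg value of 0.15 over 6 tests of family sums. The study calls its genome-wide replicates biological but does not say whether they were separate cultures, so p-values may measure only the spread between these libraries, and counting intervals cover counting error only.

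The size of that ratio depended on what the family was set against. Per record counted outside genes, meaning in no gene on its own strand, the Vmn2r ratio was 2.64 (exact permutation p = 0.1, Benjamini-Hochberg 0.15). The records outside genes also took a larger share of the IP libraries. Whether they include reads of the spike-ins was not tested. Per record of any kind the Vmn2r ratio was 11.9, and per TMM effective library size 17.4. The other chemoreceptor families gave ratios of the same order. As a share of gene counts, the odorant receptors (Olfr, 1107 genes) stood 28.1-fold and the V1R receptors (Vmn1r, 200 genes) 49.0-fold higher in IP. These families were not wholly silent, since 10 Olfr genes and 1 Vmn1r gene reached 1 CPM in Input. Relative to Olfr, the Vmn2r ratio was 1.22 (exact permutation p = 0.2, Benjamini-Hochberg 0.24), and relative to Vmn1r it was 0.777 (exact permutation p = 0.3, Benjamini-Hochberg 0.3). Neither difference passed the threshold of 0.05, which a design of 3 against 3 cannot reach.

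Measured per kb of sequence, the IP and Input libraries gave different pictures of the same genes. Counting had used the whole gene span with strand, so densities are given per kb of gene span, and per kb of single-copy sequence where 50-mers that occur once in the genome stand for uniquely placed reads. Vmn2r spans gave 0.112 ± 0.00914 counts per kb in Input and 0.0657 ± 0.0136 in IP (SD, n = 3 each). Only 69.4% of the 50-mers in Vmn2r spans occur once, against 91.1% for Olfr and 83.5% for Vmn1r. Per kb of single-copy sequence the family had 0.162 ± 0.0132 counts in Input and 0.0947 ± 0.0195 in IP. Sequence outside annotated genes was taken on each strand by itself, so it includes the strand opposite to genes. It had 1.14 ± 0.0991 counts per single-copy kb in Input and 0.251 ± 0.0328 in IP. Its length covers the main chromosomes, while its records were not limited to them and may include reads of the spike-ins.

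Vmn2r density was therefore below that of sequence outside genes in every library. Outside sequence was 7.03 ± 0.0424 times denser than Vmn2r in Input and 2.69 ± 0.295 times denser in IP. All protein-coding genes were 189 ± 2.32 times denser than Vmn2r in Input and 5.02 ± 0.568 times denser in IP, and no Input value overlapped an IP value in either comparison. The Olfr density was 1.03 ± 0.0638 times that of Vmn2r in Input and 0.864 ± 0.170 times in IP, so these families could not be ordered in IP beyond the spread between libraries. Vmn1r was at 0.457 ± 0.0720 of the Vmn2r density in Input, below Olfr in each Input library, and at 0.641 ± 0.234 in IP, where its values overlapped those of Olfr.

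**Figure D1:**
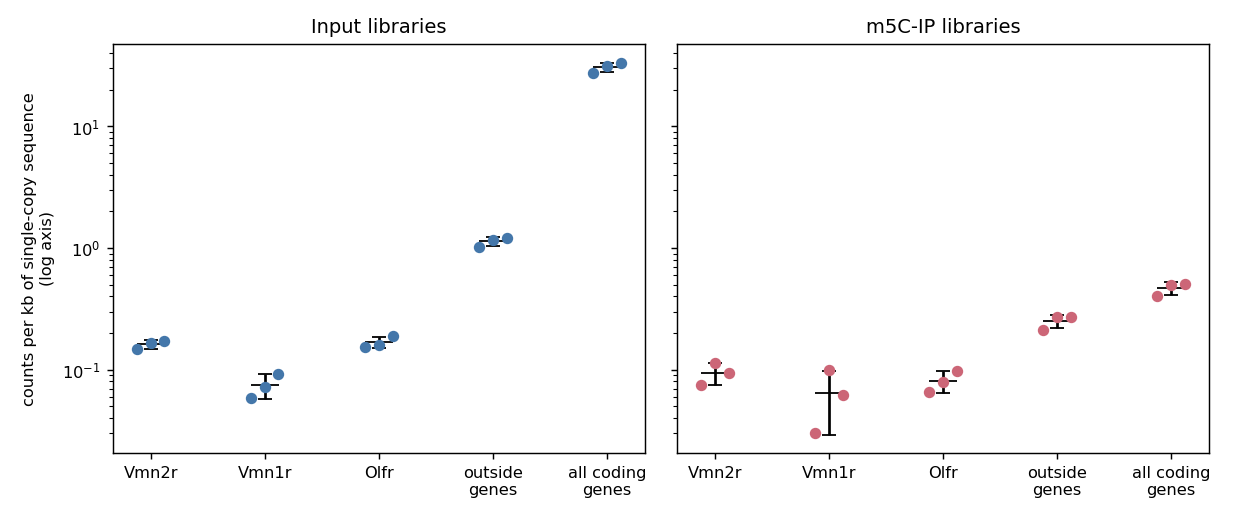
Counts per kb of single-copy sequence (log axis) in the 3 Input and 3 m5C-IP libraries. Groups are Vmn2r, Vmn1r and Olfr genes, sequence outside genes and all protein-coding genes. Outside sequence includes the strand opposite to genes. Points are libraries, bars the mean with SD. Vmn2r lies at 0.162 in Input and 0.0947 in IP, below outside sequence in both panels, and the distance to all coding genes shrinks from 189 to 5.02 times.

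Members were unevenly filled. Summed over the 3 libraries, a member had 0 to 268 Input counts (median 4) and 0 to 120 IP counts (median 2). In Input, 1 member held 21.5% of the family's counts and the top 5 held 37.8%. In IP, 1 member held 16.5% and the top 5 held 31.1%. They were different genes: Vmn2r84 led in Input and Vmn2r55 in IP. No count in any IP library was found for 32 members and none in any Input library for 23, and 14 had no count at all. Only 1 member, Vmn2r84, reached a mean of 1 CPM in Input, and 63 had fewer than 3 counts in each Input library.

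Vmn2r55, an orphan receptor gene on the minus strand of chr7:12651706-12685003 (GRCm38), had 36, 52 and 32 counts in IP and 4, 8 and 5 in Input. Its IP level of 72.8 ± 17.4 CPM was the highest of the family in each IP library, and its Input level was 0.175 ± 0.0585 CPM (SD, n = 3 each). All IP values stood above all Input values, and the pooled CPM ratio was 413 with a counting interval of 248 to 733. In the edgeR fit the log2 IP/Input was 7.66 ± 0.46 (SE), with an adjusted p of 2.95e-10. Like every called member, Vmn2r55 entered this fit through its IP counts, since its Input levels lay under the 0.676 CPM of the count filter, so its fitted value is a description; with no count filter it was 7.22 (adjusted p = 2.66e-43). A fitted log2 value is lower than that of a CPM ratio throughout, because TMM scaling moved the median of all genes by 1.01 on the log2 scale against library size alone.

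The counts of Vmn2r55 came with peaks in the same intron. MACS2 peaks recorded on the strand of the gene were listed in all 3 replicates, centred 11547 to 11629 bp from the gene start, and peaks recorded on the other strand in replicates 1 and 2. The sequence is printed because only Vmn2r55 and Vmn2r13 held overlapping peaks of all 3 replicates: it is the replicate 1 peak, chr7:12673294-12673454 on the minus strand of GRCm38, 5′ to 3′, with capitals for the 150 bases that lie in the peaks of all 3 replicates.
Vmn2r55 peak: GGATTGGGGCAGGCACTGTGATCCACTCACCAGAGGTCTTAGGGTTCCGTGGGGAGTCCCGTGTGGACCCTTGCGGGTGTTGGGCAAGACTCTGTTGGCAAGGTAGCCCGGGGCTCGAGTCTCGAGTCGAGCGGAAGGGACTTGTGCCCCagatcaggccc
The stretch is 63.4% G and C, holds 8 CpG, and is repeat-masked over its whole length. Of its 50-mers 0.893% occur once in the genome, with a median of 16 and a highest of 2601 copies. At least 1 of its 20-mers was found in 8.75%, 7.01% and 7.60% of all mESC peaks of replicates 1, 2 and 3. These were 963 to 1190 peaks of a replicate, its own included, and they need not share the rest of the sequence. Few reads of 50 bases from it would have a single place in the genome.

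Vmn2r13 on chr5:109152940-109192199, minus strand, was second in IP. It had 15, 10 and 10 counts in IP and 7, 7 and 1 in Input, so that its level was 21.9 ± 8.51 CPM against 0.161 ± 0.115 CPM (SD, n = 3 each). The groups did not overlap, and edgeR gave a log2 of 6.07 ± 0.68 (SE; adjusted p = 5.29e-07). Its repeated peak was recorded on the plus strand, opposite to the gene, at the same 150 bases in replicates 1 and 2 and over 153 bases from the same start in replicate 3. The printed peak is that of replicates 1 and 2, chr5:109181089-109181238, plus strand, and all of it lies in the peak of replicate 3.
Vmn2r13 peak: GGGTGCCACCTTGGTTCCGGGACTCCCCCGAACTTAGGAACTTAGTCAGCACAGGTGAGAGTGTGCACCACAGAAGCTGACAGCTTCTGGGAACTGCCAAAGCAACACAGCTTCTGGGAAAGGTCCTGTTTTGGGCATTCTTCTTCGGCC
It is 55.3% G and C, fully masked, and 53.5% of its 50-mers occur once. A 20-mer of it was found in 0.636% to 0.683% of all mESC peaks per replicate.

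Other members among the densest in IP per kb of union exon, or with the largest log2 values, had fewer counts and overlapping ranges among themselves. Vmn2r11 had 5, 6 and 9 counts in IP and 3, 0 and 0 in Input, which gave the next largest fitted log2 IP/Input (7.30 ± 0.90 SE, adjusted p = 1.56e-06). Vmn2r90 had 5, 4 and 6 against 0, 3 and 1, with a log2 of 6.58 ± 0.85. Vmn2r97 had 6, 10 and 7 against 4, 2 and 2, with a log2 of 6.28 ± 0.68. In each of these receptors every IP level in CPM exceeded every Input level. A single count in each IP library, worth 1.69 to 2.11 CPM, would be enough for that. Vmn2r118 ranged from 2 to 13 counts in IP and from 3 to 9 in Input, and Vmn2r91 from 4 to 6 in IP and from 4 to 8 in Input. Vmn2r61 had 4, 8 and 12 IP counts, and Vmn2r71 had 6, 11 and 7, with 10, 4, 7 and 8, 18, 11 in Input. Their log2 values were 5.27, 4.75, 5.00 and 4.25, with standard errors of 0.56 to 0.72. The filter admitted each of these 7 receptors through its IP counts, so that passing the threshold carries little weight. With no count filter the log2 values of Vmn2r118, Vmn2r91, Vmn2r61 and Vmn2r71 were 4.82, 4.32, 4.56 and 3.81.

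The 5 smallest log2 values past the threshold belonged to Vmn2r92 (2.69 ± 1.02 SE), Vmn2r81 (2.91 ± 0.68), Vmn2r18 (3.09 ± 0.70), Vmn2r100 (3.29 ± 0.68) and Vmn2r60 (3.38 ± 0.55). Vmn2r60 had 16, 27 and 17 counts in Input and 8, 9 and 4 in IP. Vmn2r100 had 7, 14 and 18 in Input and 2, 3 and 8 in IP. These receptors thus had more counts in Input than in IP, and were higher in IP only as a share of their libraries. Vmn2r92, with 4, 3 and 11 Input counts and 1, 1 and 2 IP counts, missed the threshold with no count filter (edgeR adjusted p = 0.0735), without IP replicate 1 (0.0520) and without IP replicate 3 (0.135).

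Vmn2r84 held the most Input counts. This gene on chr10:130377925-130394332 had 97, 76 and 95 counts in Input and 1, 2 and 0 in IP, so that 268 of the family's 1244 Input counts were its own. Its level was 2.79 ± 0.524 CPM in Input and 1.84 ± 1.72 CPM in IP (SD, n = 3 each), and the groups overlapped. Its pooled CPM ratio was 0.655 with a counting interval of 0.134 to 1.94. The Input level lay under the 3-count limit of the IP libraries (5.06 to 6.34 CPM), so the groups cannot be ordered at this depth. Its fitted log2 of -1.58 ± 0.77 (SE) missed the threshold (edgeR adjusted p = 0.0695), and passed it without a count filter (log2 -2.02, adjusted p = 0.0196) and with a filter of at least 10 counts in all (-1.86, adjusted p = 0.0326). Its log2 ran from -2.50 without IP replicate 2 to -0.92 without IP replicate 3, neither past the threshold. Without Vmn2r84 the family's IP to Input ratio rose to 43.3, and without Vmn2r55 it was 28.8. No other annotated gene overlaps it. Its neighbours in the same array, Vmn2r85 to Vmn2r87, brought the Input sum of the array to 318.

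The family C co-receptors had few IP counts. Vmn2r1 to Vmn2r7 form 1 array on chromosome 3, with 113 Input and 12 IP counts in all. Vmn2r1 had 16, 19 and 25 counts in Input and 0, 1 and 1 in IP, and its fitted log2 of -0.01 ± 1.03 (SE), far from the threshold in edgeR (adjusted p = 0.993), changed sign with the scaling. Vmn2r3 had 6, 14 and 13 in Input, and its 4 IP counts all came from replicate 2. Vmn2r2 had 13 Input counts and none in IP. Vmn2r4 and Vmn2r6 had 5 and 2 Input counts with 1 IP count each. Vmn2r5 had 1, 2 and 1 counts in IP and none in Input. Its IP level of 2.40 ± 0.892 CPM (SD, n = 3) lay under the 3-count limit of an IP library, so no fold is given. Vmn2r7 had no count in any library, and its span of 159722 bp is overlapped on the same strand by Gm26939 and Vmn2r-ps12. Per kb of span this array had 0.0358 IP counts for the 3 libraries together, the lowest of any array with more than 1 member and a count. That value includes the whole span of Vmn2r7, so the rank rests on a gene with no count.

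The other members named by known role, Vmn2r116 and Vmn2r26, were near 0. Vmn2r116, the receptor of Esp1, had 0, 4 and 1 counts in Input and a single count in IP. For Vmn2r26, 4 counts were found in each group. Both were under the 3-count limit in every IP library or at it, so no difference from background was detectable at this depth.

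**Figure D2:**
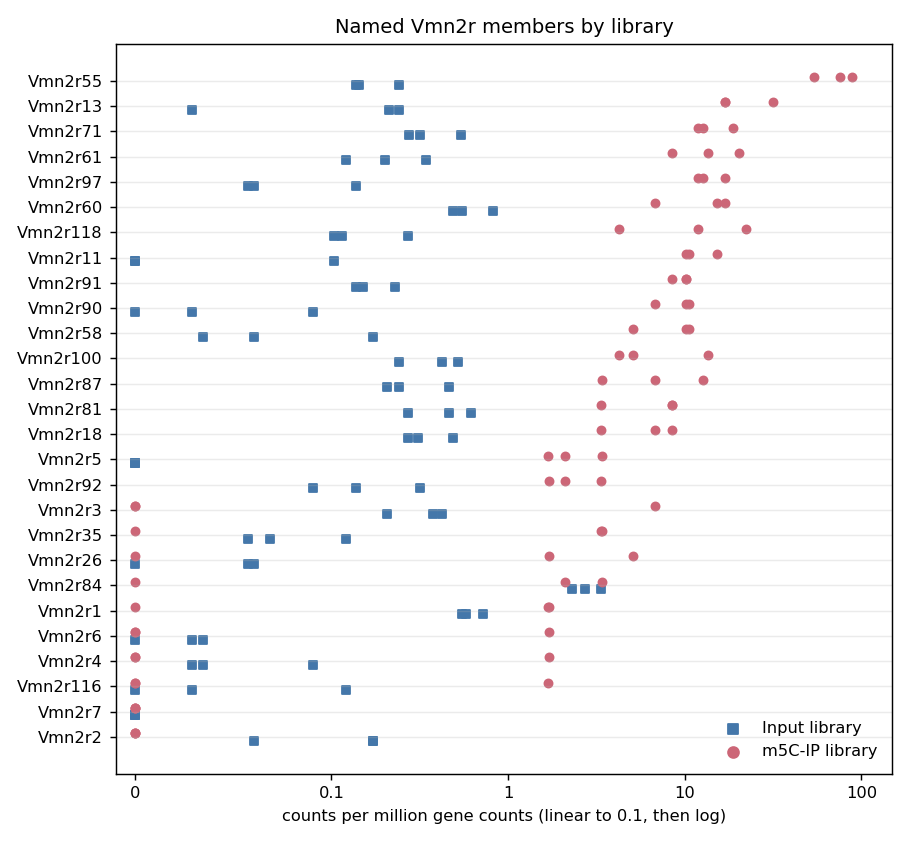
Level of the named Vmn2r members in CPM (linear to 0.1, then log) in each Input library (squares) and each m5C-IP library (circles), ordered by mean IP level. Vmn2r55 stands apart in IP at 72.8 CPM on average, Vmn2r84 is the only member whose Input mean exceeds 1 CPM, and Vmn2r7 is at 0 throughout.

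Over all members, 88 had a pooled CPM ratio above 1 and 19 below 1. The counting interval lay above 1 for 71 members and below 1 for none. These ratios are scaled by library size alone, and the matching shares over all genes were not counted. With that scaling edgeR called 10022 of 20244 genes higher in IP and 4738 lower. With TMM scaling, the edgeR test called 8078 of 20244 genes higher in IP (39.9%) and 8512 lower (42.0%). It called 30 of the 32 members it tested higher and none lower, with Vmn2r84 and Vmn2r1 the 2 that did not pass. This count has no weight of its own: the filter asked for 0.676 CPM in 3 libraries, a single IP count is worth more than that, and the 30 called members were those tested with a count in all 3 IP libraries. The 89 untested members still held 189 IP and 380 Input counts. Fitted with no count filter, 57 of 107 members were called higher (53.3%) and 1 lower, beside 36.4% and 27.9% of all fitted genes. Of fitted Olfr genes 35.4% were called higher and of fitted Vmn1r genes 31.2%. Vmn2r spans are longer, with a median of 27146 bp against 5970 bp for Olfr and 6776 bp for Vmn1r. Longer spans gather more counts, so these shares do not compare the families at equal counts.

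**Figure D3:**
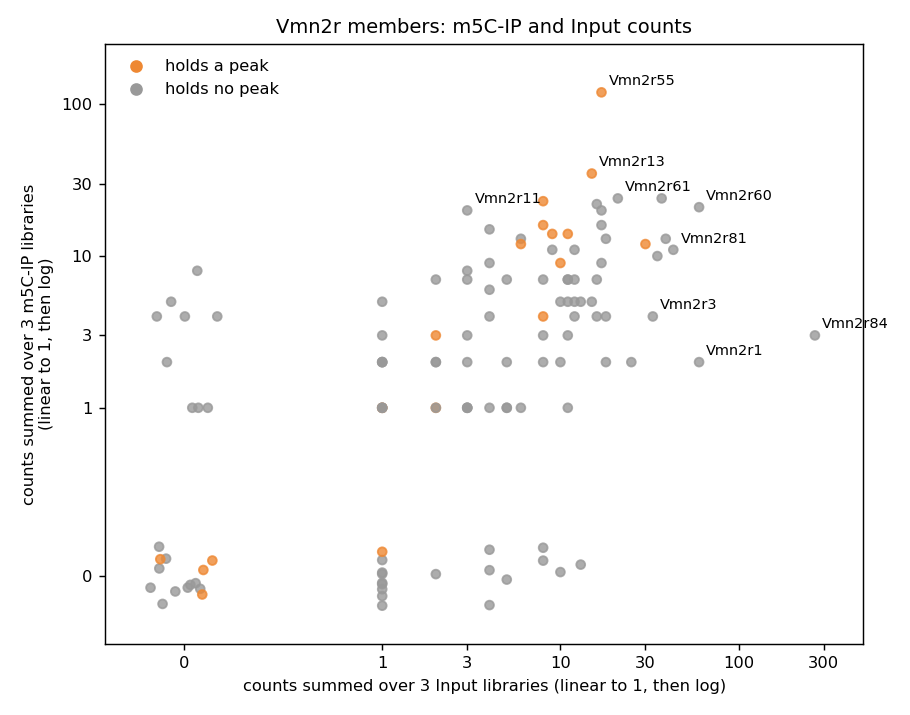
Counts of each of the 121 members summed over the 3 Input libraries (x) and the 3 m5C-IP libraries (y), both linear to 1 and then log, with members at 0 spread slightly around 0 for visibility. Vmn2r55 (17 Input and 120 IP counts) and Vmn2r84 (268 and 3) mark the ends, and most members hold fewer than 10 counts in each group; members with a peak are orange.

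Counts also differed between arrays. Members closer than 1 Mb to each other formed 18 genomic groups, 6 of them of a single gene, and 93 members lay on chromosomes 7, 17 and 5. The array of Vmn2r53 to Vmn2r56 on chromosome 7 had 0.967 IP counts per kb of span, 120 of its 147 IP counts being those of Vmn2r55. The lone Vmn2r118 on chromosome 17 followed with 0.632, and then the array of Vmn2r8 to Vmn2r17 on chromosome 5 with 0.379, which had more IP than Input counts (85 against 55). The largest array, Vmn2r29 to Vmn2r52 on chromosome 7 with 24 members, had 0.0594 IP and 0.123 Input counts per kb of span. Only 18.5% of its 50-mers occur once, and per single-copy kb its density of 0.322 in IP and 0.665 in Input was no longer low. The single-gene groups on chromosomes 4 and X (Vmn2r125 and Vmn2r121) and the pair Vmn2r88 and Vmn2r89 on chromosome 14 had no count in any library.

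**Figure D4:**
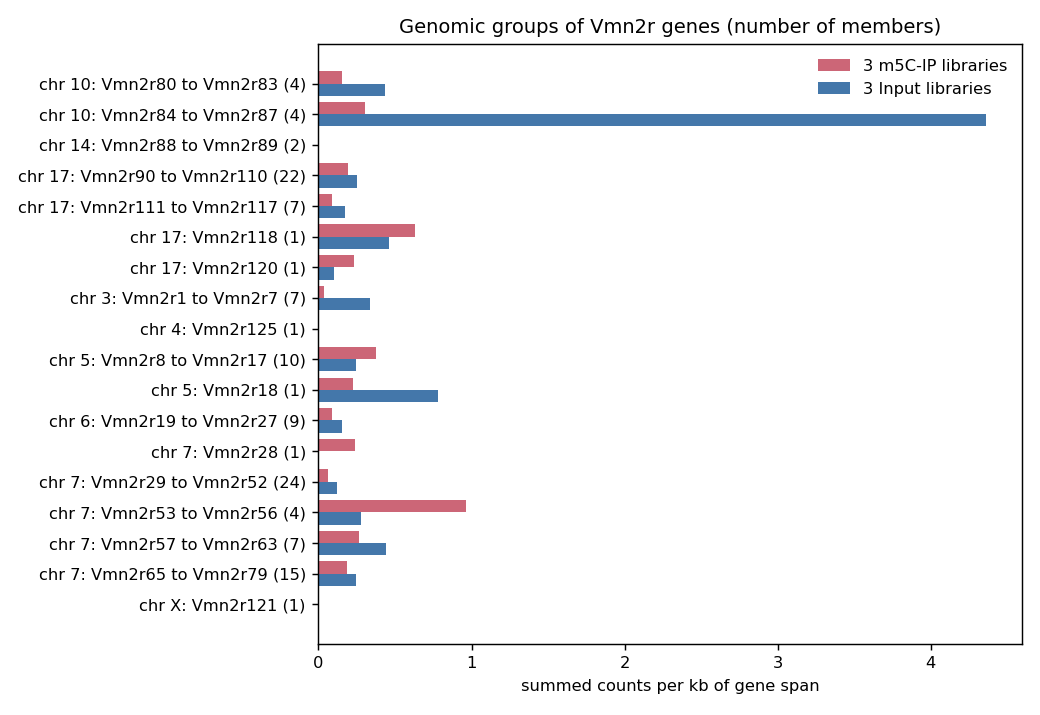
Counts per kb of gene span summed over 3 m5C-IP and 3 Input libraries in the 18 genomic groups of Vmn2r genes, with the number of members in parentheses. The Vmn2r84 to Vmn2r87 group is highest in Input (4.36) and the Vmn2r53 to Vmn2r56 group in IP (0.967).

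Sequence properties of the genes went only partly with their counts. Member spans ran from 9902 to 159722 bp with a median of 27146 bp, and had a median of 36.2% G and C, 3.80 CpG per kb and 40.1% repeat-masked bases. The medians over all protein-coding genes were 45.2%, 11.9 CpG per kb and 22.5%. Of the 14 members with no count, 7 had under 30% single-copy 50-mers and 4 were overlapped on their own strand, and 4 had neither property (Vmn2r104, Vmn2r125, Vmn2r67 and Vmn2r121). The 16 members with under 20% single-copy 50-mers held 19 IP and 38 Input counts in all. Across the 121 members, Spearman's rho of IP density per kb of span was 0.505 with Input density, 0.383 with the masked share, 0.332 with G and C content and 0.114 with the single-copy share. These are descriptions over genes that share libraries, arrays and base composition, from sparse counts.

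Peaks in member spans were few. The 3 mESC lists put 6, 14 and 13 peaks into Vmn2r genes, or 1.63, 3.80 and 3.53 per Mb of span, fewer in each replicate than the 4.84, 6.70 and 7.01 per Mb over all protein-coding genes. Olfr spans had 2.42, 4.17 and 4.31 per Mb and Vmn1r spans 0, 1.36 and 0.680. At least 1 peak lay in 18 members (14.9%), against 18.4% of all gene spans. Peaks of at least 2 replicates lay in 6 members (4.96%, against 7.32%) and of all 3 in 2 members (1.65%, against 2.85%). These shares are near or below the background, and Vmn2r spans are longer than those of most genes.

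The peaks sat in repeats rather than in receptor exons. Of 33 peaks, 31 lay in introns and 2 touched exons, in Vmn2r8 and Vmn2r97. Over 90% of bases were repeat-masked in 27 (81.8%), against 35.7% of all 41902 mESC peaks on the main chromosomes. Their median share of single-copy 50-mers was 0.784%, and 16 peaks had none. The recorded strand was that of the gene for 11 and the opposite for 22. Of the mESC peaks in single genes with over 100 Input counts per kb of span, 21.3% carried the strand of the gene, and 78.7% the opposite one. In genes with under 1 Input count per kb, 47.5% carried the strand of the gene. The recorded strand may therefore be turned relative to the RNA, in which case 22 of the member peaks would be on the strand of the gene and 11 opposite to it. Members with a peak had a median masked share of 49.4% and the others 37.8%.

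**Figure D5:**
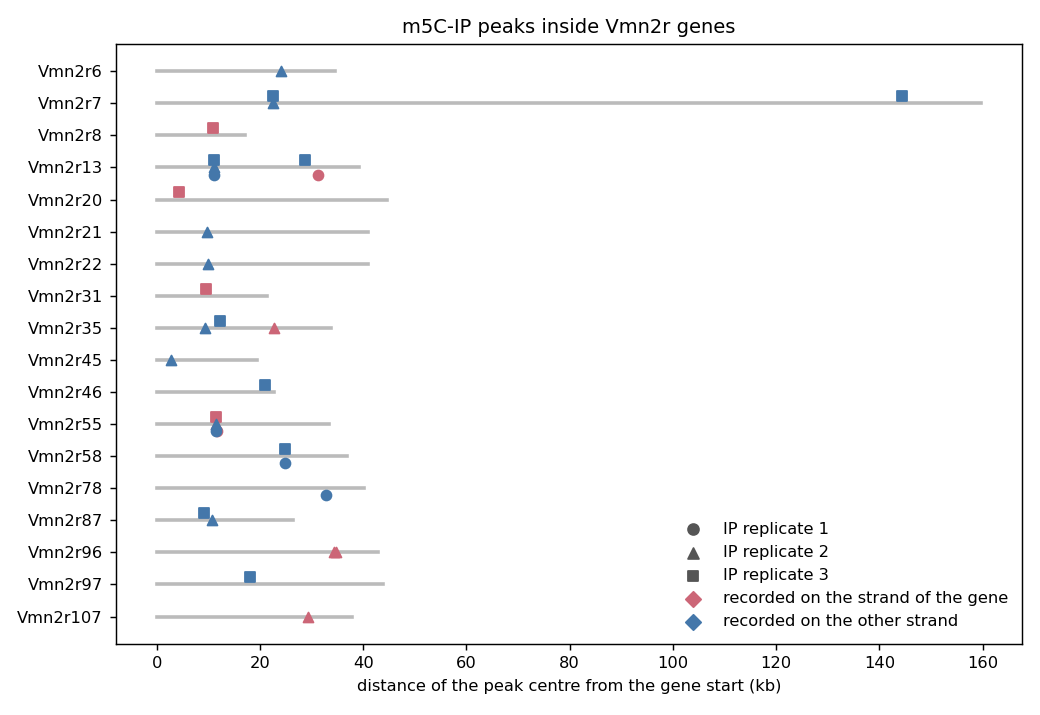
Centre of each of the 33 peaks in kb from the start of the Vmn2r gene that holds it; grey lines are gene spans, symbols the IP replicate and colours the recorded strand. Peaks of all 3 replicates line up in Vmn2r55 and Vmn2r13, those of 2 replicates in Vmn2r58 and Vmn2r7, and 22 are recorded on the other strand.

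Peak and count did not always go together, as sequences of 2 further shared sites show. Vmn2r58, with 5, 3 and 6 counts in IP and 1, 2 and 6 in Input, held the same peak, recorded on the plus strand opposite to the gene, in replicates 1 and 3 (chr7:41847758-41847907). Vmn2r7, with no counts, held plus-strand peaks of replicates 2 and 3 that overlap over 138 bases, drawn in capitals within the replicate 3 peak (chr3:64822086-64822235).
Vmn2r58 peak: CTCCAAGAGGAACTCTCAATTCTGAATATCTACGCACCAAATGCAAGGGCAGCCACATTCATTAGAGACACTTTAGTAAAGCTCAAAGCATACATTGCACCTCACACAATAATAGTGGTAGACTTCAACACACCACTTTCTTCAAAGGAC
Vmn2r7 peak: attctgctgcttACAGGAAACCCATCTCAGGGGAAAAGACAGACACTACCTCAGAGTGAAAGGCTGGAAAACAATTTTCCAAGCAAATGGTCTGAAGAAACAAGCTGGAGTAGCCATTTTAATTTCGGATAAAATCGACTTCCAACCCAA
Of their 50-mers 26.7% and 13.9% occur once. Both stretches are fully masked. In the other members with peaks of 2 replicates, Vmn2r35 and Vmn2r87, those peaks lay at different places. In all, 5 members held a peak and no IP count (Vmn2r7, Vmn2r21, Vmn2r31, Vmn2r45 and Vmn2r46). Vmn2r7 is overlapped by other genes on its own strand, and genes nested in a gene of their own strand almost never had Input counts. Single-copy 50-mers made up only 0.889%, 21.4%, 27.7% and 0% of the spans of Vmn2r21, Vmn2r31, Vmn2r45 and Vmn2r46. Their counts of 0 therefore carry little weight.

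A pair of peaks in different arrays shared sequence. The replicate 1 peak of Vmn2r13 recorded on the strand of the gene (chr5:109160893-109161043, minus strand) and a replicate 2 peak of Vmn2r96 (chr17:18607378-18607527, plus strand) share 17 consecutive 15-mers, a run of 31 bases given in capitals. They were the member peaks of different genes with the most 15-mers in common.
Vmn2r13 minus-strand peak: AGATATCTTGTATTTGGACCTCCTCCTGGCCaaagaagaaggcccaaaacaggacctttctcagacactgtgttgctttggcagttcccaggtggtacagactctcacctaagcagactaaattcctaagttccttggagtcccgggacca
Vmn2r96 peak: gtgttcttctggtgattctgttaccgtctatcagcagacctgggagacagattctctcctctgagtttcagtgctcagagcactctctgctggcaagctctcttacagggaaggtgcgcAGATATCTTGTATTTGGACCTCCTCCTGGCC
The run has the same orientation relative to both peaks, and neither peak holds a 50-mer that occurs once. For Vmn2r96, counts were 1, 12 and 3 in IP and 3, 1 and 4 in Input, and both of its peaks were of replicate 2, where its counts were highest.

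Partner genes of V2R signalling were measured beside the receptors. Of 8 signal transduction genes 5 were tested; 3 passed the threshold higher in IP and 1 lower. The chloride channel gene Ano2 had 80, 142 and 68 IP counts against 33, 26 and 52 in Input (log2 6.28 ± 0.32 SE, edgeR adjusted p = 4.28e-11). Plcb2, which codes for a phospholipase C, had a log2 of 5.19 ± 0.54 and the chloride channel gene Ano1 one of 1.49 ± 0.35. Plcb2 entered the fit through its IP counts, since its Input levels (mean 0.306 CPM) lay under the 0.676 CPM of the count filter. Its pass therefore carries little weight. With no count filter 3 of 6 fitted signal transduction genes were higher and 1 lower, beside 36.4% and 27.9% of all fitted genes. Itpr3, which codes for an IP3 receptor, was lower in IP (-0.75 ± 0.13), while Gnao1 did not pass (0.42 ± 0.27, adjusted p = 0.159). The CPM means of Itpr3, 95.6 in Input and 110 in IP, have the opposite order. None of the 9 class Ib MHC genes, which code for partners of V2R receptors, and none of the 15 Esp genes were tested; they summed to 22 and 6 IP counts and to 7 and 10 Input counts. Of 22 Mup genes 1 was tested, Mup6, with 285, 402 and 398 Input counts and no pass (log2 0.40 ± 0.35). Of 200 Vmn1r genes 3 were tested and 2 passed, both higher, and of 1107 Olfr genes 28 were tested, with 19 higher and 5 lower, beside 39.9% and 42.0% of all tested genes. With no count filter 24 of 77 fitted Vmn1r genes were higher and none lower, and 196 of 554 fitted Olfr genes were higher and 6 lower, beside 36.4% and 27.9% of all fitted genes. The 5 Fpr-rs genes had no count, and the 7 Taar genes had 14 IP counts and 1 Input count.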

How the data were processed

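Counts of 6 wild-type mESC libraries (3 m5C-IP and 3 Input of caRNA) were used; the K562 libraries hold human genes and were not used here. According to the methods of the study and the submitters' processing notes, the authors trimmed reads with Trimmomatic 0.39, aligned them to mm10 with HISAT2 2.1.0 together with spike-ins, removed duplicates with Picard and called peaks on each strand with MACS2 (version 2). The deposited files hold raw read counts per gene with the summary lines of HTSeq, and peak lists of positions (start, end, strand; no usable score) per IP replicate. Whether duplicates were removed before counting is not given in the sources used here. The summary lines, 19.0% to 19.3% of Input and 71.4% to 71.7% of IP records, stayed out of library sizes. Spike-in lines were not used, so values are relative within a library.

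Identifiers were matched to GENCODE M21 (GRCm38) without their version (99.9% matched, 12 members with another version); 1 Vmn2r symbol of that release was not analysed here. Genes nested in a gene of the same strand almost never had Input counts (2 of 2850), unlike those nested on the other strand (1561 of 2407), and counting was taken to cover gene spans with strand; densities were therefore given per gene span, although union exon length had been chosen. Copy numbers of 50-mers were counted over both strands of the GRCm38 genome (RefSeq sequence), and masked bases are its lower-case letters. A peak was in a gene if it overlapped the span by at least 1 bp.

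The gene test was edgeR 4.0.16 under R 4.3.3 (quasi-likelihood F test, TMM, filterByExpr, Benjamini-Hochberg at 0.05, two-sided), and family sums with exact permutation tests in scipy 1.17.1. Standard errors were the absolute log2 value divided by the square root of F. The fit was tested on simulated data. Replicate libraries differed by more than sampling noise (chi-square per degree of freedom 2.03 to 3.89). Alternatives were RLE, library size, DESeq2 1.42.0, other filters, a replicate block, thinned Input, other lengths and peak rules, and leaving out each library; a denominator of records outside genes and peaks on the other strand were added after seeing the data. Named members were the 8 densest per exon kb in IP and in Input, the 5 largest and 5 smallest log2 values past the threshold, those with peaks of at least 2 replicates, and Vmn2r1 to Vmn2r7, Vmn2r26 and Vmn2r116; Vmn2r96 was added for its shared peak sequence after its values were seen. Members and lists were chosen with earlier results of these data known.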

Additional observations from a re-analysis of the deposited data

How the results depend on the processing

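The family's higher share in IP held its direction under all alternatives run: 11.9 per all records, 17.4 and 19.5 with TMM and RLE effective sizes, 2.64 per record outside genes, 32.1 in members that overlap no other gene, and 31.7 to 35.2 leaving out each library. Relative to Olfr the ratio ran from 1.03 without Vmn2r55 to 1.55 without Vmn2r84, and relative to Vmn1r from 0.602 to 0.990; leaving out each library gave 1.09 to 1.34 and 0.602 to 0.906. None of these can pass 0.05. The IP density was 0.257 counts per kb of union exon (Input 0.440), 0.0657 per kb of span and 0.350 per kb of single-copy union exon.

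All genes called, 16590 (48.7% higher in IP), fell to 6145 with Input thinned to IP depth and ran from 9236 to 16165 leaving out each library; library size scaling alone called 14760, 67.9% of them higher. Members called, 30, fell to 1 with thinned Input (1 tested) and rose to 58 with no count filter (107 tested). Leaving out each library gave 2 to 27: without any 1 of the Input libraries only 2 members, and 12280 to 12292 genes, passed the filter, since its limit follows the median library size. DESeq2, RLE, library size and the replicate block each called the same 30. Correlations of same-numbered libraries were near 0 (0.0180, 0.0221 and 0.00443), though above those of differently numbered libraries (-0.0191 to 0.00130). Values this small cannot tell whether replicate numbers pair the libraries, and the main fit did not pair them. With the replicate block 15434 genes were called. The log2 of Vmn2r1 turned to 0.16 with DESeq2, 0.16 with RLE, 0.99 with library size alone, and ran from -0.34 to 0.47 leaving out each library, never past the threshold.

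Members with a peak, 18, were 8 with the peak recorded on the strand of the gene and, an alternative added after seeing the data, 13 with it recorded on the other strand; they were 6 with peaks of at least 2 replicates, 2 with all 3, and 12 to 17 leaving out each replicate. Depth limits the members: at 473398 to 592324 gene counts, an IP library cannot separate a member at 0 from one at 5 CPM.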

Other observations

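Some members had most of their IP counts in a single library; the members named here were chosen after their values were seen. Vmn2r78 had 0, 1 and 11 IP counts in replicates 1 to 3 and 2 in each Input library, and its peak was of replicate 1. Vmn2r96 had 12 of its 16 IP counts in replicate 2, with 2 peaks in that replicate. Vmn2r65, which held no peak, had 2, 1 and 8 counts in IP and 7, 1 and 4 in Input. Vmn2r9 and Vmn2r48 had 8 and 5 IP counts, none of which was in replicate 1 for Vmn2r9 or in replicate 3 for Vmn2r48, and neither had an Input count. In 34 members every IP level in CPM stood above every Input level. These were the 34 members with a count in all 3 IP libraries. A single IP count is worth 1.69 to 2.11 CPM, so this order needs no more than that. The matching share over all genes was not counted. In 7 members, all with no IP count, every Input level stood above. For those 7 the Input level was under the 3-count limit of the IP libraries. Neither set of members can therefore be ordered.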
